A study of Homo sapiens with 4 samples.

Results

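PMAIP1, APAF1, TP53I3 and TRIAP1 are transcriptional targets of p53 that act in the control of apoptosis, and they make up 4 of the 4208 genes of the deposited table, in which they were found by gene symbol. Total nuclear RNA of A549 cells was sequenced in 2 conditions. UV+ cells received 40 J/m2 of UV at 254 nm and recovered for 16 h before harvest, and UV− cells were left unirradiated. Each condition has 2 libraries, and both come from the same lung tumor line without any other treatment. For each gene the table gives the reads in a 500-nt window upstream of the polyadenylation site (PAS), which stand for total RNA, and in a 500-nt window downstream of it, which stand for RNA not yet cleaved at the PAS. The study asked whether UV inhibits PAS cleavage, which would raise the downstream/upstream ratio.

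p53 is a transcription factor that is stabilized after DNA damage and activates genes of cell cycle arrest, repair and cell death. In the mitochondrial pathway of apoptosis, BH3-only proteins such as NOXA, encoded by PMAIP1, bind the survival proteins of the BCL2 family. Cytochrome c then leaves the mitochondria and assembles with APAF1 into the apoptosome, which activates caspase-9. TP53I3, also called PIG3, is a quinone oxidoreductase linked to the formation of reactive oxygen species, and TRIAP1, also called p53CSV, is a small protein that inhibits apoptosis and works with PRELI-like proteins in lipid transfer inside mitochondria.

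The 3′ ends of the 4 genes were placed on hg19 to show what the windows count. PMAIP1 lies on the plus strand of chromosome 18, from 57567192 to 57571538, and APAF1 on the plus strand of chromosome 12, from 99039078 to 99129211. TP53I3 lies on the minus strand of chromosome 2, from 24300303 to 24308085, and TRIAP1 on the minus strand of chromosome 12, from 120881764 to 120884215. With 90134 nt APAF1 is the longest of them, against 7783 nt for TP53I3, 4347 nt for PMAIP1 and 2452 nt for TRIAP1. The gene ends of GENCODE 44, lifted to the same build, lay 1, 0, 0 and 3 nt from the PAS of the table for PMAIP1, APAF1, TP53I3 and TRIAP1.

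The poly(A) signals are shown because the window counts turn on these sites. The stretches run from nt 35 to nt 6 before the PAS, 5′ to 3′, with the signal in capitals, and were read from hg19 at chr18:57571504-57571533 (plus), chr12:99129177-99129206 (plus), chr2:24300308-24300337 (minus) and chr12:120881769-120881798 (minus).
PMAIP1: ctgtggcagtaaactATTAAAagttttcac
APAF1: taaaAATAAAattcacaaaattgttttgaa
TP53I3: aaagctgatatgaggaAATAAAgagtgaac
TRIAP1: atggAATAAAttgtaacatttagtttctat
PMAIP1 has the variant ATTAAA, which starts 20 nt before the PAS, and the others have AATAAA, which starts 31 nt (APAF1), 19 nt (TP53I3) and 31 nt (TRIAP1) before it. Of the 4205 genes with a usable position, 58.0% have AATAAA and 18.6% have ATTAAA in the last 50 nt, searched on the gene's strand.

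The first 40 nt after the PAS follow, at chr18:57571539-57571578, chr12:99129212-99129251, chr2:24300263-24300302 and chr12:120881724-120881763 on the same strands, with the longest unbroken run of G and T in capitals, since G/T-rich sequence downstream of the cleavage site is bound by the cleavage stimulation factor.
PMAIP1: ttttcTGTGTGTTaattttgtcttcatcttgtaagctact
APAF1: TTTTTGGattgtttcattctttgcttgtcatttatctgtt
TP53I3: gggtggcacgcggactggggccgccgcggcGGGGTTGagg
TRIAP1: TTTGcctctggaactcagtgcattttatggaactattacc
These runs measure 8 nt in PMAIP1, 7 nt in APAF1, 7 nt in TP53I3 and 4 nt in TRIAP1, where the median of all genes is 6 nt. The downstream window of TP53I3 is the richest in GC of the 4, with 70% against 45.2% for PMAIP1, 44.4% for TRIAP1 and 38.4% for APAF1. None of these 4 promoters (250 nt before to 50 nt after the start, RefSeq, GRCh38.p14) holds the decamer consensus of the p53 response element without a mismatch on either strand, which 6.63% of 35116 promoters hold. This says only that the exact decamer is not in these windows.

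All 4 downstream windows hold 0 nt of exons annotated on the gene's own strand. On the opposite strand, exons of ANKS1B cover the whole upstream window of APAF1 and 201 nt of its downstream window, and an exon of FAM228B covers 37 nt at the far end of the TP53I3 downstream window. Introns of FAM228B span the rest of both TP53I3 windows, and a gene without a symbol spans both windows of TRIAP1 on the opposite strand with no exon there. PMAIP1 has no annotated gene opposite its windows. The libraries keep strand, but whether the counting used it is not given in the sources used here, so reads of these overlapping genes cannot be told apart from those of APAF1, TP53I3 and TRIAP1. The last exon of TP53I3 is 329 nt long, and a 500-nt genomic window upstream of its PAS therefore reaches into the preceding intron.

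**Figure D1:**
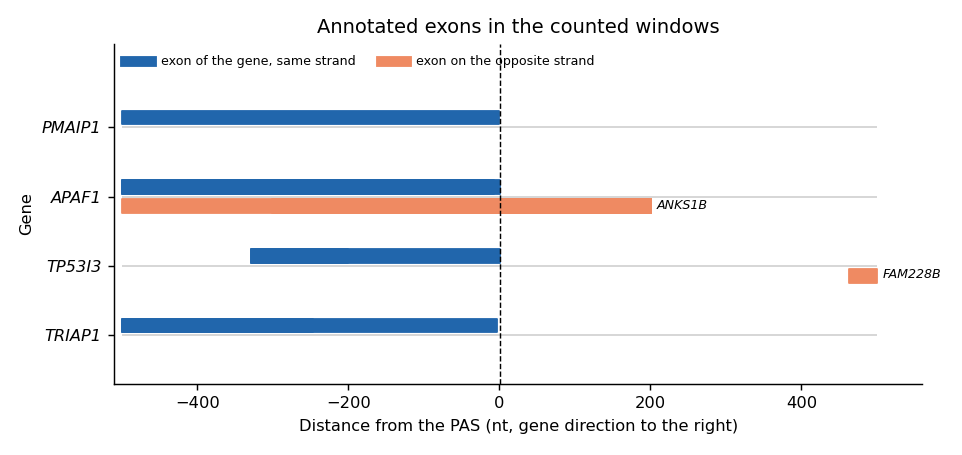
Annotated exons (GENCODE 44 on hg19) by distance from the PAS in nt, with exons of the gene in blue and exons on the opposite strand in orange. The downstream side of each row holds no exon of the gene itself, and ANKS1B and FAM228B overlap the windows of APAF1 and TP53I3.

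The windows held 389697 to 481798 upstream and 76473 to 92566 downstream reads in UV+, and 262657 to 453821 upstream and 50814 to 81339 downstream reads in UV−. UV+ replicate 2 had 240 upstream windows without a read, against 62 in UV+ replicate 1 and 66 and 62 in UV−, and APAF1 is among them. Of 4 leukocyte markers CD68 alone had a row, at 104.1 and 132.5 normalized reads upstream for UV+ and 71.0 and 53.3 for UV−, and of 5 fibroblast and 3 endothelial markers 0 had one. Of 8 markers of lung epithelium or A549, KRT18 alone had a row (209.8 and 290.2 in UV+, 637.3 and 799.0 in UV−). Their part in the results below was not tested. Normalized reads are the reads of a window over the size factor of its library, and a rise or fall is relative to that scaling. In bulk RNA, more cells with a transcript and more transcript per cell cannot be told apart. All windows are 500 nt long, so levels of different genes are compared per window. They are not compared per exon length, as exon covers 329 nt of the TP53I3 upstream window. It covers 499 nt for PMAIP1, 500 nt for APAF1 and 497 nt for TRIAP1.

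PMAIP1, TP53I3 and TRIAP1 were called higher upstream in UV+ by limma, and APAF1 did not pass the test in either direction. Over all 4208 genes, limma called 11.7% higher and 20.7% lower upstream at an adjusted p under 0.05, with a median log2 fold change of −0.24. Downstream, where 11.7% of all genes were called higher and 9.41% lower with a median of 0.24, TP53I3 and TRIAP1 passed as higher. For the ratio, TP53I3 was called higher at an unadjusted p under 0.05, the threshold of the study, at which 11% of all genes were called higher and 2.4% lower. After adjustment 0 of the 4 passed for the ratio, as against 0.143% higher and 0.0238% lower of all genes by limma. With edgeR 0 of the 4 passed as well, and DESeq2 called none of the 3 for which it gave an adjusted p, leaving APAF1 without one. The study required 10 reads per window in one of the conditions, and how libraries were combined for this is not given in the sources used here. With reads summed over the libraries of a condition, 57 of the 4208 genes reached it in neither condition. TP53I3 and TRIAP1 reached it in UV+ and in UV−, while PMAIP1 and APAF1, with 5 and 4 downstream reads in UV− in all, reached it in UV+ only. Their listing thus rested on the UV+ downstream reads, and their downstream values and ratios are given as a description, with no call. The upstream window of PMAIP1 reached 10 reads in UV− as well (61 in all). Its upstream call is still that of a gene listed through UV+, where it is high. Of all genes, 1229 reached the minimum in UV+ alone and 977 in UV− alone. When 1 library was left out, the upstream calls held without UV+ replicate 1 or UV+ replicate 2. Without UV− replicate 1 they ended for PMAIP1, TP53I3 and TRIAP1 (adjusted p = 0.078, 0.11 and 0.079 from limma), and likewise without UV− replicate 2 (0.051, 0.10 and 0.075), with log2 fold changes close to those of all libraries. The downstream calls of TP53I3 and TRIAP1 ended without any 1 of the libraries (adjusted p = 0.069 to 0.19 from limma).

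**Figure D2:**
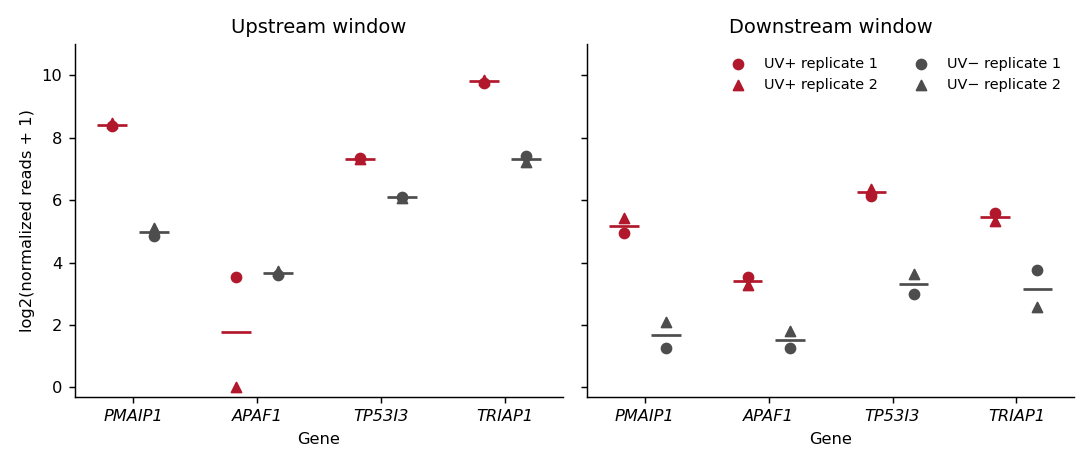
Normalized reads per library on a log2 scale (pseudocount 1) in the upstream and the downstream window, with the mean of each condition as a line (n = 2 libraries each). UV+ libraries lie above UV− libraries in both windows for PMAIP1, TP53I3 and TRIAP1, and in the downstream window only for APAF1. Upstream, APAF1 is at 0 in UV+ replicate 2.

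PMAIP1 encodes NOXA, which binds and neutralizes the survival protein MCL1. Its upstream window held 327.7 (replicate 1) and 353.1 (replicate 2) normalized reads in UV+, and 27.8 (replicate 1) and 33.6 (replicate 2) in UV−. The conditions are far apart, with means of 340.4 ± 17.9 for UV+ and 30.7 ± 4.10 for UV− (SD, n = 2). The log2 fold change was 3.43 (SE 0.25, adjusted p = 2.09e-06, limma), the 33rd highest of 4208 genes. PMAIP1 was listed through UV+, where both windows were high, so this call and rank carry that limit. Downstream, PMAIP1 had 37 and 43 reads in UV+ and 1 and 4 reads in UV−, which is 30.1 and 41.6 normalized reads against 1.39 and 3.28. The downstream log2 fold change was 3.51 (SE 0.60), close to that of the upstream window. For every 100 upstream reads there were 9.18 and 11.8 downstream reads in UV+, against 5 and 9.76 in UV−, and the ratio did not separate the conditions. As PMAIP1 was listed through its UV+ downstream reads, the ratio is a description. Its log2 fold change was 0.07 (SE 0.72), beside 0.38 for the median gene. With a pseudocount of 5 the sign turned (−0.80), as it did without UV+ replicate 2 (−0.10) or UV− replicate 1 (−0.21). By RT-qPCR on nuclear RNA, the study reported that UV inhibited 3′-end processing of NOXA, a measure other than these window counts.

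APAF1 encodes the scaffold of the apoptosome. It had the fewest upstream reads of the 4 genes, namely 13 (replicate 1) and 0 (replicate 2) in UV+, and 8 (replicate 1) and 15 (replicate 2) in UV−. Normalized, this was 10.6 and 0 in UV+ and 11.1 and 12.3 in UV−, so that UV+ replicate 1 lay just under both UV− libraries and UV+ replicate 2 held no read at all. The upstream log2 fold change was −1.90 (SE 1.0, adjusted p = 0.15, limma). It rests on the library without reads: without UV+ replicate 2 it was −0.13 (adjusted p = 0.87), and without UV+ replicate 1 it was −3.67 and passed (adjusted p = 0.018). UV+ replicate 2 had 0 upstream reads for 240 genes, of which 37 had 10 or more in UV+ replicate 1, against 6 of 62 genes the other way round.

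Downstream of the APAF1 PAS, 13 and 9 reads were counted in UV+ and 1 and 3 in UV−, or 10.6 and 8.71 normalized reads against 1.39 and 2.46. The downstream log2 fold change was 1.88 (SE 0.77). UV+ replicate 1 thus had as many downstream as upstream reads and UV+ replicate 2 had only downstream reads, whereas UV− had 12.5 and 20 downstream reads for every 100 upstream reads. The log2 ratio was 0.00 and 3.28 in UV+, above −2.34 and −1.94 in UV−. The difference was 3.78 on the log2 scale (SE 1.13), and it was 2.14 without UV+ replicate 2 and 5.42 without UV+ replicate 1. As APAF1 was listed through its UV+ downstream reads, this value is a description.

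TP53I3, the quinone oxidoreductase, had 162.6 (replicate 1) and 156.7 (replicate 2) normalized upstream reads in UV+, and 68.2 (replicate 1) and 65.6 (replicate 2) in UV−. Replicates lay close together, with means of 159.7 ± 4.19 for UV+ and 66.9 ± 1.81 for UV− (SD, n = 2). The upstream log2 fold change was 1.24 (SE 0.25, adjusted p = 0.0023, limma), the smallest of the 3 genes that rose. The downstream window changed by more, with 85 and 84 reads in UV+ and 5 and 14 reads in UV−. After normalization these were 69.1 and 81.3 in UV+ against 6.96 and 11.5 in UV−, which gives 2.93 on the log2 scale (SE 0.40, adjusted p = 0.0022, limma). This is an 8.15-fold difference of the means downstream, beside a 2.39-fold difference upstream.

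For every 100 upstream reads, TP53I3 had 42.5 and 51.9 downstream reads in UV+ and 10.2 and 17.5 in UV−, without overlap of the conditions. On the log2 scale the ratio changed by 1.69 (SE 0.53, 95% interval 0.52 to 2.85, unadjusted p = 0.0086, limma), with an adjusted p of 0.26. Without UV− replicate 1 it was 1.34 and the call ended (unadjusted p = 0.086). The gene that follows on the same strand, SF3B6, encodes a subunit of the U2 snRNP and starts 1060 nt beyond the TP53I3 PAS in GENCODE 44. SF3B6 had 44.7 and 29.0 normalized reads upstream for UV+ and 22.3 and 35.3 for UV−, and its change did not pass (log2 fold change 0.35, adjusted p = 0.52, limma).

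TRIAP1, the inhibitor of apoptosis, was the most abundant of the 4 genes upstream in every library. It had 862.8 (replicate 1) and 928.7 (replicate 2) normalized reads in UV+, and 168.4 (replicate 1) and 147.7 (replicate 2) in UV−. Its log2 fold change was 2.50 (SE 0.20, adjusted p = 4.1e-06, limma), the 93rd highest of 4208 genes. Downstream reads numbered 58 and 41 in UV+ and 9 and 6 in UV−, or 47.2 and 39.7 normalized reads against 12.5 and 4.92. The log2 fold change of this window was 2.31 (SE 0.50, adjusted p = 0.014, limma). For every 100 upstream reads there were 5.47 and 4.27 downstream reads in UV+, which fell between the 7.44 and 3.33 of UV−. The ratio changed by −0.19 (95% interval −1.53 to 1.15, unadjusted p = 0.76, limma), and without UV− replicate 1 its sign turned (0.31).

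**Figure D3:**
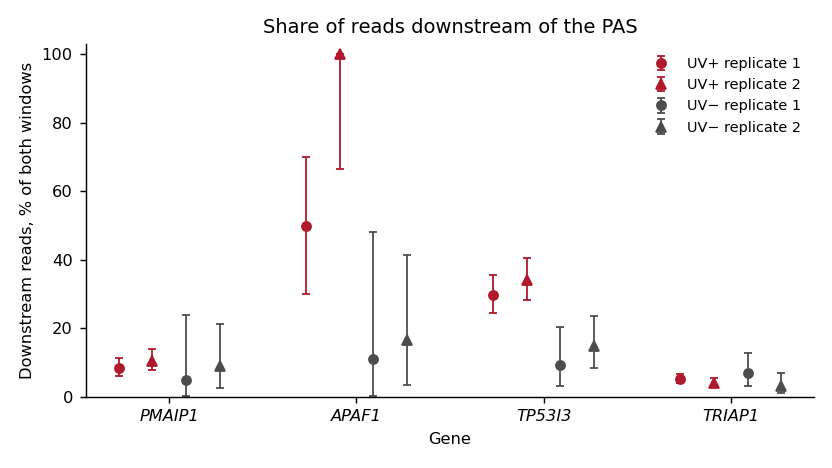
Downstream reads as a percent of the reads in both windows, per library, with exact Clopper-Pearson 95% intervals that cover counting error only. TP53I3 is at 29.8% and 34.1% in UV+ against 9.26% and 14.9% in UV−. The libraries of PMAIP1 and TRIAP1 overlap and the intervals of APAF1 are wide.

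As a share of the reads in both windows, downstream reads of TP53I3 were 29.8% (95% exact interval 24.6 to 35.5) and 34.1% (28.2 to 40.4) in UV+, against 9.26% (3.08 to 20.3) and 14.9% (8.39 to 23.7) in UV−. The UV+ and UV− intervals do not overlap in any pairing of libraries. For APAF1 the shares were 50% (29.9 to 70.1) and 100% (66.4 to 100) in UV+ and 11.1% (0.281 to 48.2) and 16.7% (3.58 to 41.4) in UV−, and the intervals of UV+ replicate 1 and both UV− libraries overlap. PMAIP1 was at 8.41% (5.99 to 11.4) and 10.5% (7.73 to 13.9) in UV+, inside the UV− intervals, which reach from 0.12 to 23.8 and from 2.48 to 21.2. TRIAP1 had 5.18% (3.96 to 6.65) and 4.1% (2.96 to 5.52) in UV+, and 6.92% (3.21 to 12.7) and 3.23% (1.19 to 6.89) in UV−. These intervals leave out the spread between cultures, and reads without molecular identifiers are not independent molecules.

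The order of the upstream levels was TRIAP1, PMAIP1, TP53I3 and APAF1 in both UV+ libraries and TRIAP1, TP53I3, PMAIP1 and APAF1 in both UV− libraries, and no neighbors in either order overlapped between replicates. Downstream the order in UV+ was TP53I3 first and APAF1 last, while PMAIP1 and TRIAP1 between them overlapped. In UV− the downstream ranges of TP53I3 and TRIAP1 overlapped, as did those of PMAIP1 and APAF1, all of which rest on 14 reads or fewer.

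Whether the ratio changed by different amounts was compared within libraries, for all 6 pairs of genes. The log2 ratio of TP53I3 exceeded that of PMAIP1 by 2.18 and 2.12 in UV+ replicates 1 and 2, against 0.47 and 0.60 in UV− replicates 1 and 2, so that the change differed by 1.61. Set against TRIAP1, the change of TP53I3 was larger by 1.88, again without overlap of the conditions. APAF1 exceeded PMAIP1, TRIAP1 and TP53I3 by 3.71, 3.97 and 2.10 in the same measure, also without overlap. PMAIP1 and TRIAP1 differed by 0.27, and the conditions overlapped. For the 5 pairs without overlap the two-sided exact permutation test gave p = 0.33, the smallest that 2 libraries against 2 allow (adjusted p = 0.4 over the 6 pairs). This test cannot pass at this number of libraries, and no other test of these differences was run. Pairs with PMAIP1 or APAF1 are a description, since both were listed through UV+.

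**Figure D4:**
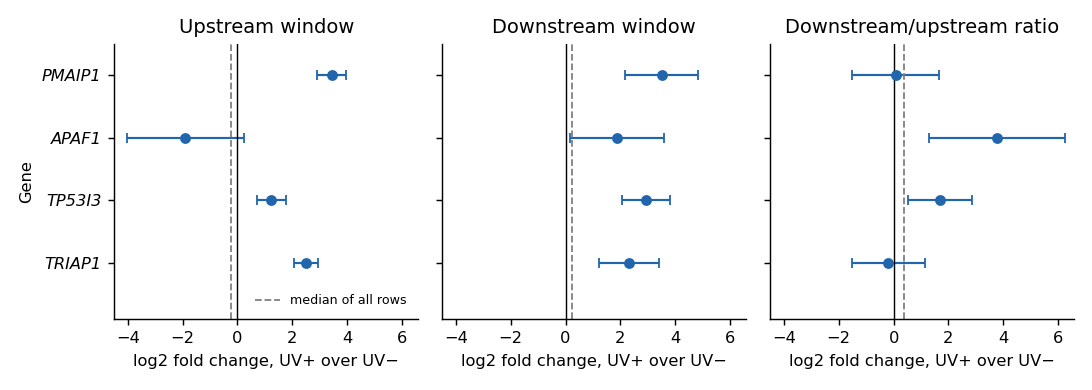
Log2 fold changes of UV+ over UV− with 95% intervals from limma for the upstream window, the downstream window and their ratio, with the median of all genes as a dashed line. The ratio interval of TP53I3 lies above 0, and that of TRIAP1 includes 0 and the median of 0.38. PMAIP1 and APAF1 were listed through UV+ only, so their downstream values and ratios are a description.

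Other p53 targets were counted for comparison, from lists written from general knowledge. Of 9 further targets that act in cell death, 4 were called higher upstream in UV+ and 0 lower by limma after adjustment, beside 11.7% higher and 20.7% lower of all genes, with a median log2 fold change of 0.42. They were AEN, a nuclease (log2 fold change 2.06), the death receptor gene TNFRSF10A (1.83), TP53INP1, a p53 cofactor (2.24), and PHLDA3, an inhibitor of AKT (1.61). AEN, TP53INP1 and PHLDA3 had fewer than 10 downstream reads in UV− in all (normalized 2.78 and 4.92, 0 and 0, 2.78 and 0.82). These genes were listed through UV+ only, and their upstream calls carry that limit. IGFBP3, PERP, SIAH1 and ZMAT3 had log2 fold changes of −0.13 to 0.42 and did not pass. Of 18 targets that act in arrest, repair and feedback, 14 rose and 0 fell, beside the same shares of all genes, with a median of 1.68. Among them were BTG2, an antiproliferative gene (4.96), GADD45A, a stress sensor (3.51), SFN, a 14-3-3 protein that holds cells in G2 (3.51), and MDM2, the ubiquitin ligase of p53 (2.47). BTG2, SFN and MDM2 had fewer than 10 downstream reads in UV− in all (normalized 4.17 and 1.64, 4.17 and 0, 1.39 and 6.56). These 3 and others of the 14 were listed through UV+ only, as were 1229 of all 4208 genes. The count of 14 and the median carry that limit. Of the 9, 0 were called without UV− replicate 1 or UV− replicate 2, and 2 without UV+ replicate 1. Of the 18, 0 were called without UV− replicate 1, 1 without UV− replicate 2 and 8 without UV+ replicate 2. Over all genes, 1 was higher and 0 lower without UV− replicate 1, and 2 and 0 without UV− replicate 2.

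For the ratio, 2 of the 9 cell death targets were higher and 0 lower at an unadjusted p under 0.05, beside 11% higher and 2.4% lower of all genes. They were ZMAT3, an RNA-binding protein (2.46), and PHLDA3 (1.77). Both had fewer than 10 downstream reads in UV− in all (normalized 4.17 and 0 for ZMAT3, 2.78 and 0.82 for PHLDA3). They were thus listed through UV+ only, and their ratios are a description. Of the 18 arrest and repair targets 3 were higher and 0 lower, a share close to that of all genes. Among them ANKRA2 (1.82) was also listed through UV+ only (2.78 and 4.10 normalized downstream reads in UV−) and is a description. The other calls were those of the sliding clamp gene PCNA (2.45) and of RPS27L (0.71). These calls changed with the libraries: for the cell death list 0 were left without UV+ replicate 2 or UV− replicate 2 and 1 without UV+ replicate 1 or UV− replicate 1, and for the arrest and repair list 0 without UV+ replicate 1 and 1 without UV− replicate 1 or UV− replicate 2. In the arrest and repair list 3 were lower with a pseudocount of 5, and 1 was lower with edgeR, with DESeq2 and without each 1 of the libraries. In the cell death list 0 were higher when a mean of at least 10 was required, and 1 was lower without UV+ replicate 1. The median log2 fold change of the ratio was 0.64 in the first list and 0.60 in the second, beside 0.38 over all genes. TP53I3, with 1.69, and APAF1, with 3.78, lay above these medians, and PMAIP1 and TRIAP1 below them.

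Partners of the 4 proteins were counted in the same way. Of 8 measured genes of caspases, apoptosome components and inhibitors, 1 was higher and 1 lower upstream, beside 11.7% and 20.7% of all genes. CYCS, which encodes the cytochrome c that binds APAF1, had 102.5 and 77.4 normalized reads upstream for UV+ and 16.7 and 15.6 for UV− (log2 fold change 2.39, adjusted p = 0.00028, limma), and this call ended without UV− replicate 1 (adjusted p = 0.099) or UV− replicate 2 (0.087). BIRC2, an inhibitor of apoptosis and ubiquitin ligase, was lower by −0.96 (adjusted p = 0.048, limma), a call that ended with DESeq2 (adjusted p = 0.18) and without any 1 of the libraries (adjusted p = 0.058 to 0.34 from limma). For the ratio DIABLO, which antagonizes inhibitors of apoptosis, was the 1 of the 8 that was higher (2.06, unadjusted p = 0.031, limma), beside 11% of all genes. Upstream, 0 of 4 measured genes of the BCL2 family passed, beside 11.7% higher and 20.7% lower of all genes. There 0 passed at an unadjusted p under 0.05 as well, and 0 with edgeR or DESeq2. Downstream 1 of the 4 was higher by limma after adjustment, beside 11.7% of all genes, but it was listed through UV+ only. PRELID1, a PRELI-like partner of TRIAP1, was higher upstream by 1.49 (adjusted p = 0.011, limma), a call that held without UV+ replicate 1 and ended without any other library, and its relative PRELID2 had no upstream read in UV+ against 5.57 and 9.02 normalized reads in UV−. PRELID1 was listed through UV+ only (2.78 and 3.28 normalized downstream reads in UV−), and its upstream call carries that limit. PRELID2 was listed through UV− only, its upstream reads there included. Its lower upstream value in UV+ (log2 fold change −3.02) is a description, with no call. NQO1 and NQO2, other quinone oxidoreductases, had upstream changes of −0.01 and −0.31 and did not pass. The ratio of NQO1 was lower at the unadjusted threshold (−1.29, unadjusted p = 0.0498, limma), as were 2.4% of all genes. It did not pass after adjustment (adjusted p = 0.37, limma), and its sign was opposite to that of TP53I3.

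The genes most like each of the 4 were sought among those with a mean of at least 10 upstream reads, over 8 values per gene (both windows in 4 libraries on the log2 scale, each minus the UV− mean of its window). For PMAIP1 they were NIPBL-AS1, DUSP14 and LOC100128288, at Euclidean distances of 1.04, 1.09 and 1.21, where the median gene was at 7.05. SPRYD4, PHLDA1 and NOP2 were nearest to TP53I3, at 0.58, 0.65 and 0.70 (median gene 4.58). TRIAP1 was nearest to SNAPC5, MIR4521 and LINC00938, at 0.73, 0.85 and 0.85 (median gene 5.06). For APAF1 the nearest were HMGB2, GPN3 and TTPAL, at 0.90, 1.87 and 1.97 (median gene 4.92). Among themselves, TP53I3 and TRIAP1 were the closest pair of the 4 genes, at 2.40, and PMAIP1 and APAF1 the farthest apart, at 8.31.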

How the data were processed

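A549 nuclear RNA, depleted of ribosomal RNA, was sequenced in 2 UV+ and 2 UV− stranded libraries. Reads were trimmed (cutadapt) and mapped on hg19 (TopHat2) by the authors, who kept those with a mapping quality of 20 or more (SAMtools) and assigned them to the windows by featureCounts (R 3.4.0). The deposited signal values are reads per window that the authors divided by one size factor per library. Multiplied back, 100% of the values were whole reads (tolerance 1e-06 read). Fold changes and p-values in the deposited table come from the authors' own DESeq2 comparison and were not used.

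Windows were tested on log2(normalized reads + 1) in R 4.3.3 by limma 3.58.1 with its variance trend, two-sided, over all 4208 genes with Benjamini-Hochberg adjustment. For the ratio, the difference of both log2 values was tested per library with the trend on the downstream level. The study's methods call the libraries of a condition biological replicates. The script was checked on simulated reads. Alternatives were pseudocounts of 0.5 and 5, a mean of at least 10, TMM factors, no trend, a replicate block, edgeR 4.0.16 and DESeq2 1.42.0 on recovered reads, and leaving out each library. The genes and lists were chosen with earlier results of these data known. Named are the 4 genes, up to 4 called genes per list by the smallest upstream p, the 3 nearest genes and genomic neighbors. Named outside that rule, with their values known, are NQO1, NQO2, IGFBP3, PERP, SIAH1 and list genes cited for the ratio. Some genes of the lists are counted but not reported here by name. The name cells of 3 genes were shifted and 3 symbols had become dates, and these genes were tested without a name. Tables were handled with numpy 2.4.6, pandas 2.3.3 and scipy 1.17.1 under Python 3.11.15.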

Additional observations from a re-analysis of the deposited data

How the results depend on the processing

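Of 141 values of the 4 genes under the alternatives, 113 kept their direction and their side of the threshold. Among the 141 are downstream values and ratios of PMAIP1 and APAF1, which carry no call here. Without the variance trend, the upstream change of TP53I3 (1.24, adjusted p = 0.051 from limma) and the downstream change of TRIAP1 (2.31, adjusted p = 0.061) missed the threshold. The ratio of APAF1 was 3.40 with DESeq2. A pseudocount of 5 gave −0.80 for the ratio of PMAIP1. When 1 library was left out, the upstream change ranged from 3.30 to 3.56 for PMAIP1, from −3.67 to −0.13 for APAF1, from 1.22 to 1.27 for TP53I3 and from 2.40 to 2.59 for TRIAP1. The downstream change ranged from 3.09 to 3.93 for PMAIP1, from 1.61 to 2.15 for APAF1, from 2.60 to 3.25 for TP53I3 and from 1.71 to 2.90 for TRIAP1. The ratio ranged from −0.21 to 0.36 for PMAIP1 (−0.10 without UV+ replicate 2), from 2.14 to 5.42 for APAF1, from 1.34 to 2.04 for TP53I3 and from −0.69 to 0.31 for TRIAP1. A lone library is there assumed to vary like the others.

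Over all genes, 492 were higher and 872 lower upstream, against 241 and 574 without the trend and 322 and 562 with DESeq2. Downstream, 493 were higher and 396 lower, against 239 and 216 without the trend, 205 and 126 with DESeq2, and 237 lower where a mean of at least 10 was required. The downstream counts were 104 and 9 without UV+ replicate 1, 105 and 8 without UV+ replicate 2, 10 and 106 without UV− replicate 1 and 7 and 105 without UV− replicate 2. For the ratio, 464 were higher and 101 lower at the unadjusted threshold, against 245 and 44 with a mean of at least 10. At the adjusted one, 6 and 1 became 36 and 7 with a pseudocount of 5, 57 and 7 with a mean of at least 10, 0 and 0 without the trend, 21 and 3 with edgeR and 37 and 11 with DESeq2. Of the 18 arrest and repair targets, 8 were higher upstream without the trend.

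With the replicate number as a block, 22 genes were higher and 5 lower for the ratio after adjustment, and no call of the 4 genes changed. Deviations of same-numbered libraries correlated at 0.06 upstream, 0.07 downstream and 0.04 for the ratio. No pairing by number was seen, but with 2 libraries per condition this check cannot exclude it. A mean of at least 10 left no value for APAF1. Depth limits APAF1 in both windows and PMAIP1 downstream in UV−.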

Other observations

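Genes beside the 4 also had values of their own. IKBIP, which lies next to the start of APAF1 on the opposite strand, had 512.3 and 523.3 normalized reads upstream in UV+, against 332.6 and 330.6 in UV− (log2 fold change 0.64, adjusted p = 0.023, limma), a call that ended without any 1 of the libraries (adjusted p = 0.065 to 0.17) and without the variance trend (0.19). Its downstream window held 23 and 14 reads in UV+ and 1 and 4 in UV−, and it too was listed through UV+ only. COX6A1, a subunit of cytochrome c oxidase whose gene ends 3224 nt beyond the PAS of TRIAP1 on the opposite strand, was at 265.1 and 341.5 upstream in UV+ and at 125.2 and 174.7 in UV− (log2 fold change 1.02, adjusted p = 0.0069, limma). With 4 and 6 downstream reads in UV+ and 3 and 2 in UV−, COX6A1 was also listed through UV+ only. The COX6A1 call ended without UV+ replicate 2 (adjusted p = 0.097), UV− replicate 1 (0.18) or UV− replicate 2 (0.11), and without the variance trend (0.11).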
